A study of Mus musculus with 9 samples.

Results

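The thick ascending limb of the loop of Henle reabsorbs salt without water and is followed here through 8 genes that mark it: Umod, Egf, Slc12a1, Ptger3, Bsnd, Kcnj1, Cldn10 and Cldn16. They are 8 of the 19858 genes listed in 2 tables of UMI counts (unique molecular identifiers, 1 per captured RNA molecule) from single nuclei of mouse kidney, and all 8 were among the 16939 genes present in both tables. A nucleus was called a limb nucleus when it held 2 or more Slc12a1 UMIs, which gave 1720 limb nuclei among 27738 (6.20%). The study followed nuclei traced from injured tubule cells through recovery from bilateral ischemia-reperfusion injury (IRI) in male mice aged 11 to 19 weeks. The 4 controls were Six2TGC; Rosa26rtTA; pTRE-H2BeGFP mice given doxycycline food (625 mg/kg), in which GFP marks nephron nuclei. Control 1 had no surgery, and controls 2, 3 and 4 were sham-operated. The IRI mice, 2 killed at day 7 and 3 at day 28, were Krt20T2A-CE; INTACTnuGFP/+ mice given tamoxifen (0.05 mg/g) with an 18 min clamp of both renal pedicles. In them GFP traces cells that had switched on Krt20, which the study uses to mark injured proximal tubule, so the limb nuclei of IRI mice are those the GFP sort delivered from such a line and not a sample of the whole limb. All nuclei were sorted for GFP. Reporter line, sort and injury differ together in each comparison with control and cannot be told apart there, whereas day 28 and day 7 share reporter and sort.

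In this segment the apical cotransporter NKCC2 (Slc12a1) carries sodium, potassium and chloride into the cell, ROMK (Kcnj1) returns potassium to the lumen, and chloride leaves on the basolateral side with the help of barttin (Bsnd). The lumen becomes positive, and cations cross between cells through claudin pores, Cldn10 for sodium and Cldn16 for calcium and magnesium. Umod encodes uromodulin, the most abundant protein of normal urine, Egf encodes the precursor of epidermal growth factor, and Ptger3 encodes the prostaglandin E2 receptor EP3, which restrains salt transport.

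Library totals ran from 1833617 UMIs (control 4) to 14641038 (day 7 mouse 1), and limb nuclei supplied 129875 to 1000057 of them, from 86 to 503 nuclei a mouse. By their starting letters the cell barcodes of the 4 controls and of day 28 mouse 1 belonged to the v2 set and those of the other 4 mice to the v3 set, so day 7 and control are also separated by kit. No pair of libraries shared more than 26 barcodes, more than 1.02% of the smaller library, or more than 1 limb barcode. Median depth was 711 to 3327 UMIs in limb nuclei. In them all 12 markers of a wider limb list were detected in each of the 9 libraries. They summed to 6958 to 20121 CPM (UMIs per 1000000 UMIs of the same nuclei). In other nuclei 11 or 12 of them were detected, at a summed 279 to 556 CPM. The list includes Slc12a1, which chose the nuclei. All 12 of a proximal tubule list were also detected in limb nuclei. They summed to 5174 to 8281 CPM in controls, 1780 to 2911 at day 7 and 1092 to 2793 at day 28. The 6 podocyte markers summed to 589 to 1559, 1669 to 1767 and 1485 to 2686 CPM in the same groups, with 3 to 6 of 6 detected. Of the 4 macula densa markers 0 to 3 were detected, at a summed 0 to 139 CPM.

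Of the 8 genes, 7 had a RefSeq promoter entry (GRCm38.p6), all but Bsnd. Those of Umod and Egf (of its 2 starts the upstream one) are shown because these genes fell most at day 7, and both starts of Cldn10 because its counts behaved unlike the other 7. Each window holds the 250 bases before the start, 5′ to 3′ on the strand of the gene, and capitals mark the motif GTTAAT, searched on both strands (ATTAAC where it lies on the opposite strand).
Umod, chr7:119479263-119479512, minus strand: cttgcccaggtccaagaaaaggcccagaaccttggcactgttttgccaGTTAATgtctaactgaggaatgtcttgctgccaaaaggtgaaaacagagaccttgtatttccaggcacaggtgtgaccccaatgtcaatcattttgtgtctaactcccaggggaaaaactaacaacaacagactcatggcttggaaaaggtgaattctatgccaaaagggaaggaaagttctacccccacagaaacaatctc
Egf, chr3:129755323-129755572, minus strand: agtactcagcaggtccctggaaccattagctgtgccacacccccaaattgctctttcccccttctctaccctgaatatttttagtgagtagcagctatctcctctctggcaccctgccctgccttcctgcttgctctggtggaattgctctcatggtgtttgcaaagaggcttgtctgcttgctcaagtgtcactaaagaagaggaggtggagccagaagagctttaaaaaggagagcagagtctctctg
Cldn10, first start, chr14:118787621-118787870, plus strand: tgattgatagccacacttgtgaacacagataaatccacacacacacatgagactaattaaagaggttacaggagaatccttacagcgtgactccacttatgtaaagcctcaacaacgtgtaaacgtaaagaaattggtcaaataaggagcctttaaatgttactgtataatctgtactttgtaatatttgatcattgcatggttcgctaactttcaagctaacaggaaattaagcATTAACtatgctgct
Cldn10, second start, chr14:118854700-118854949, plus strand: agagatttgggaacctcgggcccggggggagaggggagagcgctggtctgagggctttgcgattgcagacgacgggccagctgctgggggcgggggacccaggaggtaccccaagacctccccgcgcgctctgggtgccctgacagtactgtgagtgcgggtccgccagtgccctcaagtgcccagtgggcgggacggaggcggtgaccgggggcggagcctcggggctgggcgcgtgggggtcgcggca
The motif was present 1 time in the Umod window, beginning 202 bases before the start, and 1 time in the first Cldn10 window, beginning 15 bases before it. It was in 6.43% of the 32851 windows of this length, and it was not found in the windows of Egf, Slc12a1, Kcnj1, Ptger3 or Cldn16. AAGGTCA, an oestrogen-related receptor half-site that overlaps no GTTAAT match in these windows, was in none of the members' windows and in 4.08% of all. The first Cldn10 window had 36% G and C and the second, 67079 bases downstream, 72.4%. Counts from the 3' end are given per gene and do not separate the starts.

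The members lie on 7 chromosomes (GENCODE M21, GRCm38). Umod is at chr7:119462711-119479282, Egf at chr3:129677565-129755316, Slc12a1 at chr2:125152505-125230002 and Ptger3 at chr3:157566892-157645888. Bsnd is at chr4:106483456-106492283, Kcnj1 at chr9:32372493-32399197, Cldn10 at chr14:118787908-118875489 and Cldn16 at chr16:26463135-26482765. Counts were taken per gene and are not assigned to exons or introns. Umod, Egf and Slc12a1 are overlapped by antisense genes of the tables (Gm44588 for Umod; Gm42697, Gm42650 and 6330410L21Rik for Egf; Gm14002 for Slc12a1), and whether the counting used strand is not given in the sources used here, so their counts may include reads of those genes.

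Across the 9 libraries Egf, Ptger3, Umod, Kcnj1 and Bsnd were far higher in limb nuclei than in the other nuclei of the same mouse, and Cldn10 was not. In edgeR's quasi-likelihood test with the library as a block, Egf was higher by 6.02 on the log2 scale (standard error, SE, 0.22, adjusted p = 1.58e-13), Ptger3 by 5.98 (SE 0.18), Umod by 5.26 (SE 0.24), Kcnj1 by 3.89 (SE 0.17) and Bsnd by 3.32 (SE 0.32, adjusted p = 2.06e-07). Of all 10157 genes tested, 13.3% were higher in limb nuclei. Cldn16 was at 7.70 to 60.1 CPM in limb nuclei and 0 to 1.97 CPM in other nuclei, too sparse there for a fold. Cldn10 differed by -0.07 (SE 0.11, adjusted p = 0.726), and without TMM scaling its value was 0.015. Slc12a1 defined the nuclei and its difference is not tested. Ranked by the mean log2 ratio of limb to other CPM with 10 CPM added, among 11606 genes Slc12a1 was 1, Egf 2, Umod 5, Ptger3 6, Kcnj1 37, Cldn16 133, Bsnd 146 and Cldn10 5382. The 5 highest genes that are not members were Sgcz (823 CPM in limb and 10.5 CPM in other nuclei, medians over libraries), Tenm2, Enox1, Casr, the calcium-sensing receptor, and Kng2.

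**Figure D1:**
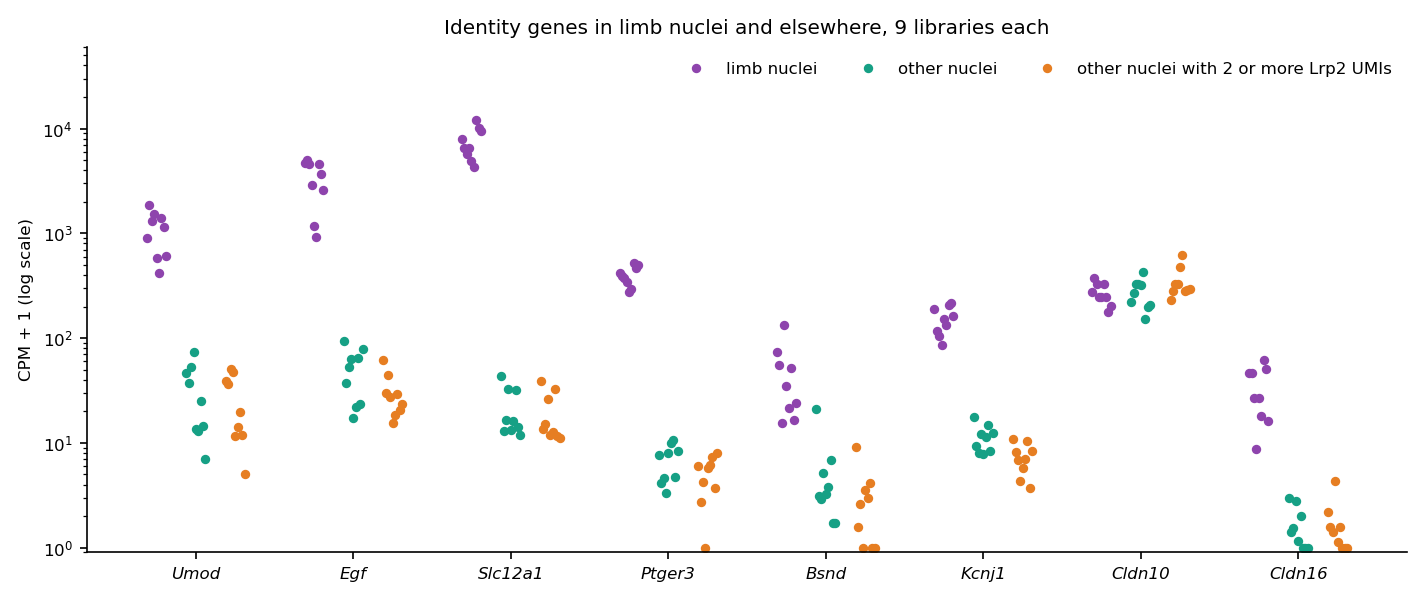
Level of each member in limb nuclei, in other nuclei and in other nuclei with 2 or more Lrp2 UMIs, as CPM plus 1 on a log axis, with 1 point for each of the 9 libraries. Within each library limb nuclei stand above both other sets for 6 genes beside Slc12a1, which chose them, while the Cldn10 points overlap (limb 177 to 373 CPM, other 151 to 422 CPM, Lrp2 set 231 to 615 CPM).

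The limb nuclei held most of the UMIs of some members and few of others. In the 9 libraries they carried 93.4% to 98.4% of Slc12a1 UMIs, 69.7% to 88.6% of Egf, 70.5% to 91.7% of Ptger3 and 48.6% to 87.6% of Umod UMIs. Their share was 35.6% to 63.8% for Kcnj1, 21.7% to 70.8% for Bsnd and 3.66% to 16.5% for Cldn10. Cldn16, with 1 to 43 UMIs a library in limb nuclei, had 25% to 92.9% of its UMIs there in controls and day 7 mice and all of its UMIs there in the 3 day 28 mice. The threshold lay in a sparse stretch: 120 nuclei had exactly 2 Slc12a1 UMIs and 1083 had 1, while 1474 limb nuclei (85.7%) had 5 or more. Nuclei with 2 Slc12a1 UMIs had 0 to 5043 CPM of Egf by library, and nuclei with 1 had 15.2 to 952 CPM.

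Umod fell in limb nuclei at day 7 and lay between day 7 and control at day 28. It was at 907, 1874, 1310 and 1525 CPM in controls 1 to 4, at 576 and 418 in the day 7 mice, and at 1396, 1145 and 608 in the day 28 mice. Both day 7 mice were below every control, and the day 28 mice overlapped the controls with day 28 mouse 3 near day 7. The means were 1404 ± 405 (SD, n = 4), 497 ± 112 (SD, n = 2) and 1050 ± 403 (SD, n = 3). Day 7 was lower than control by -1.70 on the log2 scale (SE 0.35, adjusted p = 0.00148, edgeR), day 28 against control was -0.58 (SE 0.29, adjusted p = 0.190) and day 28 against day 7 was 1.12 (SE 0.35, adjusted p = 0.0919). Without day 28 mouse 3 the last difference was 1.45 (adjusted p = 0.0206), and within the v3 libraries alone it was 0.93 (adjusted p = 0.0402).

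Egf showed the largest fall of the members tested at day 7, and it rose again from day 7 to day 28. Controls had 4641, 4981, 4539 and 2887 CPM, the day 7 mice 1168 and 919, and the day 28 mice 4540, 3649 and 2574. The day 7 mice were below all other libraries, and the day 28 mice spanned nearly the range of the controls. The means were 4262 ± 936 (SD, n = 4), 1043 ± 176 (SD, n = 2) and 3588 ± 985 (SD, n = 3). The log2 difference was -2.25 for day 7 against control (SE 0.32, adjusted p = 8.78e-05), -0.42 for day 28 against control (SE 0.25, adjusted p = 0.282) and 1.83 for day 28 against day 7 (SE 0.32, adjusted p = 0.00290). Without day 7 mouse 2 the rise was 1.66 and missed the threshold (adjusted p = 0.0735), and within the v3 libraries it was 1.69 (adjusted p = 0.000253).

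Ptger3, the EP3 receptor, took a smaller course of the same form. It was at 415, 391, 372 and 339 CPM in controls, 272 and 291 at day 7, and 522, 464 and 494 at day 28. In these CPM the 3 groups did not overlap. With the TMM scaling of the test, control and day 28 overlapped, with 469 CPM in control 1 and 466 in day 28 mouse 2. Its mean was 379 ± 32.3 CPM (SD, n = 4) in controls, 282 ± 13.5 (SD, n = 2) at day 7 and 494 ± 29.1 (SD, n = 3) at day 28. Day 7 was lower than control by -0.67 (SE 0.22, adjusted p = 0.0290) and day 28 was higher than day 7 by 0.86 (SE 0.23, adjusted p = 0.0435), both near the threshold, while day 28 against control was 0.20 (SE 0.19, adjusted p = 0.524). Of 15 alternatives other than the fits that left out 1 library, the rise missed the threshold in 8. The fall missed the threshold in 7 of 14 alternatives (without TMM scaling it was -0.44, adjusted p = 0.105) and in 3 of 9 fits that left out 1 library, control 1 or either day 7 mouse (adjusted p up to 0.231). The rise missed it when any 1 of the 5 IRI libraries was left out (adjusted p 0.0578 to 0.363). The 15 and 14 alternatives include a rule, described below, that chose nuclei partly by Ptger3 itself. Under it the edgeR fall passed (-1.19, adjusted p = 0.00684) and the rise missed the threshold (0.90, adjusted p = 0.138), and neither counts as a test of Ptger3.

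**Figure D2:**
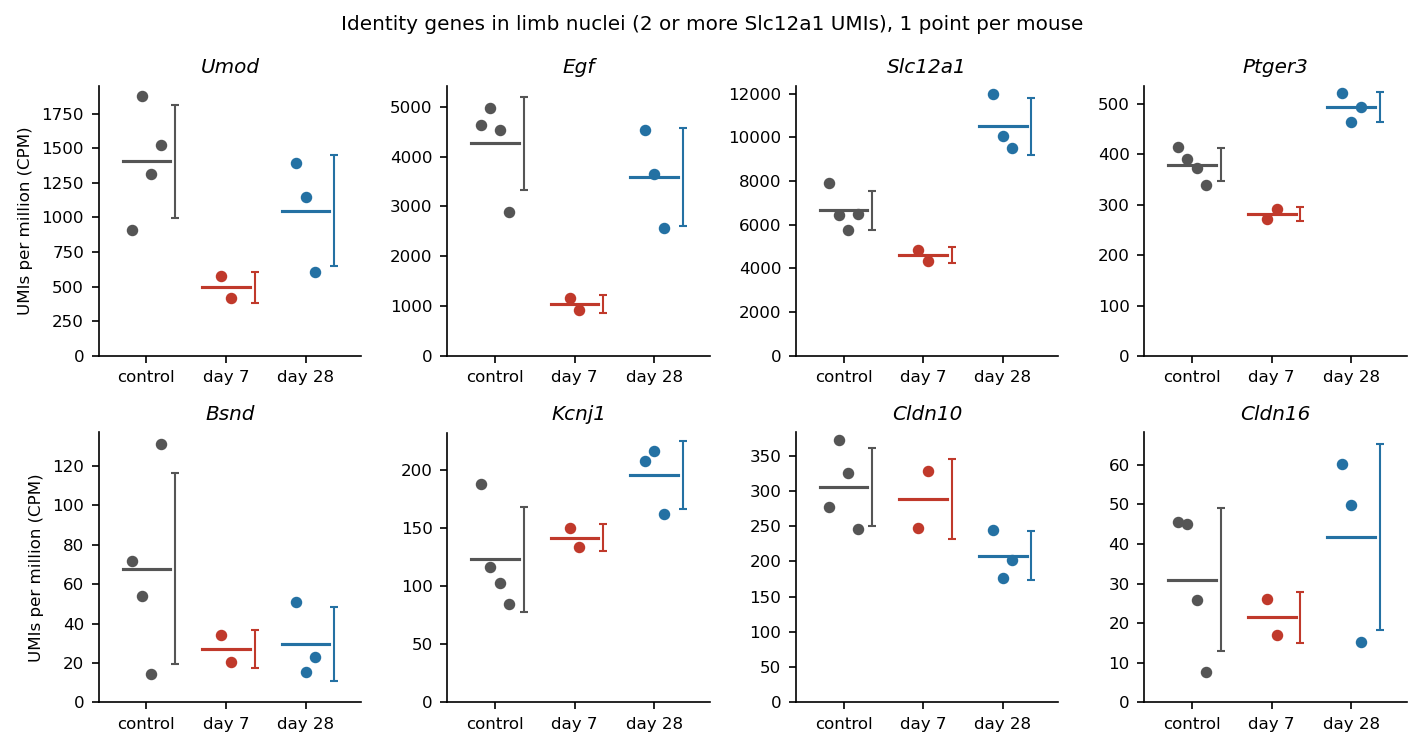
CPM of the 8 members in limb nuclei, with 1 point per mouse, a bar at the group mean and a whisker of 1 SD (control n = 4, day 7 n = 2, day 28 n = 3), each axis from 0. For Umod, Egf, Slc12a1 and Ptger3 both day 7 mice lie below every control, and for Slc12a1 and Ptger3 all 3 day 28 mice lie above every control. With TMM scaling, not drawn, Ptger3 of day 28 mouse 2 was below control 1 (466 against 469).

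Slc12a1 chose the nuclei, so its level in them is given with no test. Controls had 7893, 6468, 5752 and 6514 CPM, the day 7 mice 4857 and 4339, and the day 28 mice 11961, 10041 and 9502. Day 7 lay below and day 28 above every control. Under a rule added after seeing the data, which took nuclei with 2 or more UMIs over Ptger3, Tmem72, Cldn16, Cldn19 and Casr, Slc12a1 could be tested. There it was 1.34 higher at day 28 than at day 7 (SE 0.37, adjusted p = 0.0351), -0.83 at day 7 against control (SE 0.34, adjusted p = 0.0731) and 0.50 at day 28 against control (SE 0.29, adjusted p = 0.268). Under the same rule Umod was -1.75 (adjusted p = 0.00104) and Egf -2.42 (adjusted p = 1.64e-05) at day 7 against control.

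The other transport genes did not pass the test in any of the 3 comparisons of limb nuclei. Kcnj1 was at 188, 117, 103 and 84.7 CPM in controls, 150 and 134 at day 7, and 208, 217 and 162 at day 28. The day 7 mice lay inside the range of the controls, and the log2 difference was -0.11 (SE 0.29) for day 7 and 0.40 (SE 0.26) for day 28 against control, and 0.51 (SE 0.30) between the days. Bsnd was at 71.9, 53.9, 14.3 and 131 CPM in controls, 34.0 and 20.3 at day 7, and 50.9, 15.3 and 22.8 at day 28, from 5 to 68 UMIs a library. Its controls spanned all IRI values, and its difference from control was -1.34 at day 7 (SE 0.54, adjusted p = 0.0668) and -1.39 at day 28 (SE 0.54, adjusted p = 0.0850), with -0.05 (SE 0.61) between the days. Without control 3 both passed the threshold (-1.69, adjusted p = 0.00978, and -1.71, adjusted p = 0.0160), and likewise without day 28 mouse 1 (-1.36, adjusted p = 0.0287, and -1.84, adjusted p = 0.0194).

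Of the claudins, Cldn10 was lower at day 28 and Cldn16 was too sparse to resolve. Cldn10 had 277, 373, 326 and 246 CPM in controls, 248 and 328 at day 7, and 245, 177 and 203 at day 28. All 3 day 28 mice were below every control, with 245 CPM in the highest of them and 246 CPM in the lowest control. The log2 difference from control was -0.33 at day 7 (SE 0.25, adjusted p = 0.339) and -0.75 at day 28 (SE 0.23, adjusted p = 0.0323), and the second missed the threshold without control 2 or 3, without either day 7 mouse and without day 28 mouse 2 or 3 (adjusted p 0.0684 to 0.186). The day 28 call was also lost without TMM factors, with the barcode set as a term and with nuclei thinned to 1000 UMIs. Between the days Cldn10 was -0.42 (SE 0.26). Cldn16 had 45.4, 45.0, 25.7 and 7.70 CPM in controls, 26.0 and 16.9 at day 7, and 60.1, 49.9 and 15.2 at day 28. Its groups overlapped, with 1 UMI behind the value of control 4, and its differences were -0.89 (SE 0.50), 0.02 (SE 0.48) and 0.91 (SE 0.53) for day 7 and for day 28 relative to control and for the change between the days, in that order.

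Counted together, 3 of the 7 members tested were lower and 0 higher at day 7 than in controls, where 17.8% of the 8015 genes tested were lower and 13% higher. Their median log2 change was -0.89, against -0.02 over all genes. At day 28 against control 1 was lower and 0 higher (background 10.6% lower and 7.14% higher), with a median of -0.42 against 0.01. From day 7 to day 28, 2 were higher and 0 lower (background 2.63% higher and 1.1% lower), with a median of 0.86 against -0.02. The comparisons share libraries, so these counts are not independent of each other. With fold changes taken on library totals without TMM factors the median of all genes was 0.21 at day 7 and 0.19 at day 28 in place of -0.02 and 0.01, and the calls against control then split into 1672 higher and 1113 lower in place of 1042 and 1425 at day 7, and into 930 and 665 in place of 572 and 852 at day 28. Umod (-1.49) and Egf (-2.03) kept their fall at day 7 under that scaling.

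All controls had v2 and both day 7 mice v3 barcodes, and day 28 mouse 1 is the one IRI library of the v2 set. With the barcode set as a term, day 7 against control gave -1.68 for Egf (adjusted p = 0.114), -1.0 for Umod (adjusted p = 0.447) and -0.51 for Ptger3 (adjusted p = 0.628), and 90 genes in all passed in place of 2467. For day 28 against day 7 the same term left Egf called (1.62, adjusted p = 0.00542), while Umod was 0.86 (adjusted p = 0.208) and Ptger3 0.81 (adjusted p = 0.0782). In a fit of the v3 libraries alone, without day 28 mouse 1, all 3 passed. When limb nuclei were limited to those with under 1% proximal tubule UMIs, the day 7 differences were -2.46 for Egf and -1.88 for Umod.

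**Figure D3:**
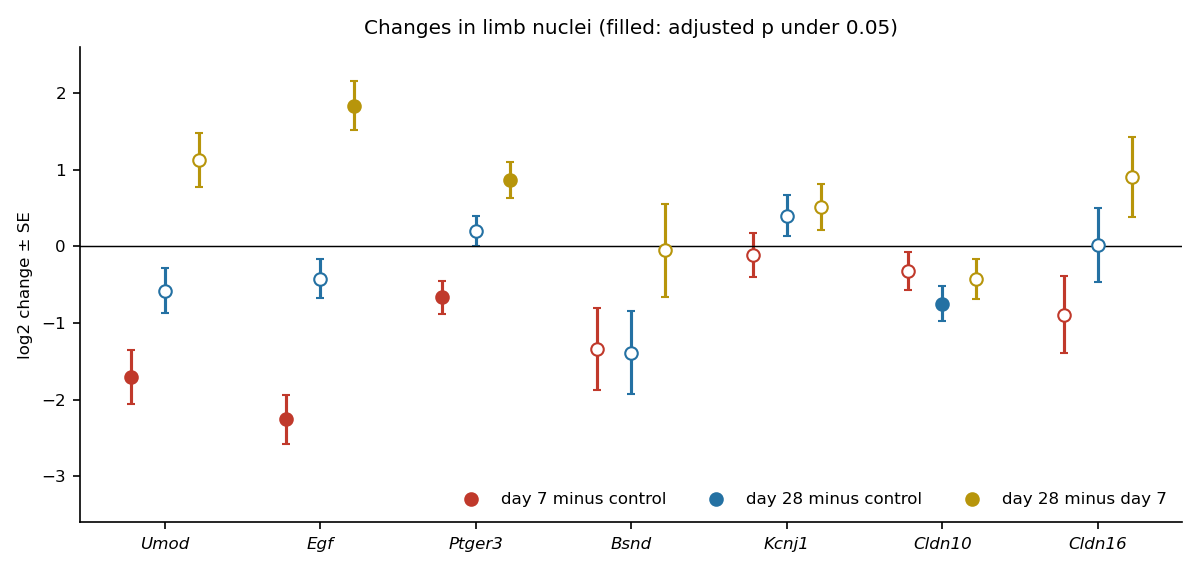
Log2 change with 1 SE in limb nuclei for the 7 members tested, in 3 comparisons, with filled points where the adjusted p is under 0.05. Egf, Umod and Ptger3 are the members below 0 with filled points at day 7, and Egf and Ptger3 are the members with filled points above 0 for day 28 minus day 7.

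The share of nuclei with a UMI followed the levels when each nucleus was thinned to 1000 UMIs. Egf was seen in 66.0%, 85.5%, 82.9% and 65.2% of limb nuclei in controls, in 34.1% and 28.2% at day 7, and in 77.8%, 61.1% and 45.9% at day 28. Umod was seen in 52.4% to 69.9%, in 38.0% and 31.7%, and in 52.4%, 55.8% and 37.6%. For both genes the day 7 mice were below every control. In the proximal tubule reference, other nuclei with 2 or more Lrp2 UMIs, the thinned share was 2.51% to 4.41% for Egf and 3.36% to 6.35% for Umod in controls, and 0.638% to 2.69% and 0.213% to 1.49% in IRI mice. Without thinning, 63.8% to 92.0% of limb nuclei of controls had an Egf UMI, as did 50.2% and 43.6% at day 7 and 58.1% to 74.8% by day 28.

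Umod and Egf tended to be seen in the same nuclei. In controls 87.2% of limb nuclei with a Umod UMI also had Egf, against 50.2% of those without, and in IRI mice 72.8% against 30.7%. The odds ratio of seeing both, with 0.5 added to each count, was above 1 in 9 of 9 libraries (3.33 to 63.0, median 5.82). Nuclei with Umod were deeper (medians of 1316.5 against 1054 UMIs in controls and 2302.5 against 1975 in IRI mice). At 1000 UMIs a nucleus, an alternative added after seeing the data, the ratio was above 1 in 9 of 9 (1.75 to 6.40, median 3.15). Cldn16 and Ptger3 went the other way, with 20.7% of Cldn16-positive nuclei of controls having Ptger3 against 41.2% of the rest, and 29.2% against 46.2% in IRI mice. Their odds ratio was below 1 in 7 of 9 libraries (0.0619 to 1.18, median 0.392), although nuclei with Cldn16 had a higher median depth (1537 against 1191 UMIs in controls). At 1000 UMIs a nucleus it was below 1 in 7 of 9 (0.20 to 5.15), the highest from control 4, which then had 0 nuclei with Cldn16. Few nuclei carry this second pattern, with 58 Cldn16-positive limb nuclei in controls and 65 in IRI mice. All pairs among Cldn10, Cldn16, Kcnj1, Ptger3, Umod and Egf were looked at without thinning. The 2 pairs described had the highest and the lowest median odds ratio. The other medians ran from 1.20 (Cldn10 and Kcnj1) to 2.48 (Ptger3 and Umod). For the claudins Cldn10 and Cldn16 the median was 1.34, with 4 libraries below 1 and 5 above. Nuclei of 1 mouse are not replicates, and no test was made.

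Many limb nuclei of IRI mice carried a UMI of Havcr1, Krt20, Vcam1, Cd44 or Lcn2, genes of injured tubule, and the members were mostly lower in those nuclei. Such nuclei were 65.6% and 66.7% of limb nuclei at day 7 and 13.8%, 24.6% and 30.2% at day 28, against 0.658% to 1.79% in controls. At 1000 UMIs a nucleus they were 41.1% and 39.4%, then 25%, 11.9% and 15.2%, against 0% to 2.56% in controls. Among the other nuclei the thinned shares were 64.8% and 62.3% at day 7 and 44.5%, 40.5% and 42.5% at day 28.

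At that depth Umod was lower in nuclei with than without such a UMI in 5 of 5 IRI libraries, at 603 against 940 and 535 against 621 CPM at day 7, and at 533 against 1467, 714 against 1548 and 500 against 791 CPM at day 28. Slc12a1, whose level in these nuclei is cut from below by the rule that chose them, was at 5259 against 9181 CPM and 5279 against 7636 CPM in the day 7 mice, and at 6800 against 12289, 7619 against 14239 and 8833 against 13776 CPM in the day 28 mice. Egf was lower in 4 of 5. Day 7 mouse 2 was the exception, with 1140 CPM in nuclei with and 848 CPM in nuclei without an injury transcript. Nuclei without an injury transcript at that depth had 1940 and 848 CPM of Egf at day 7. At day 28 they had 5422, 5065 and 3567 CPM. Thinning hides some injury transcripts, so these nuclei are not all without one at full depth. At day 7 the share with one was 65.6% and 66.7% before thinning and 41.1% and 39.4% after it. The part of such nuclei in the fall of Egf was not tested. Kcnj1 at 1000 UMIs was lower with an injury transcript in 3 and higher in 1 of the 5 libraries. Bsnd and Cldn16 had 0 to 3 UMIs a library in the nuclei with one. Before thinning, nuclei with an injury transcript had medians of 3583.5 and 2760 UMIs at day 7, against 2819 and 2932 without one. At day 28 the medians were 2211, 4828 and 6579.5 UMIs, against 1736, 1918 and 2998. The part of depth or of doublets in the lower levels was not tested. The split rests on 12 to 58 nuclei a library with an injury transcript, and it is given with no test because the nuclei of each library share their source.

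**Figure D4:**
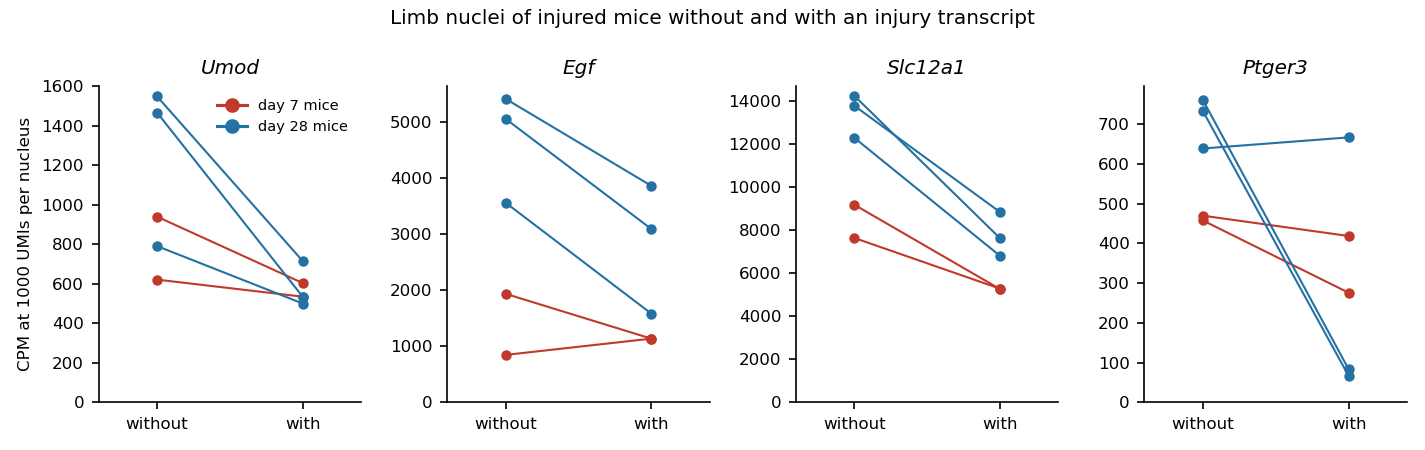
CPM of Umod, Egf, Slc12a1 and Ptger3 in limb nuclei without and with a UMI of an injury gene, each nucleus thinned to 1000 UMIs, with 1 line for each of the 5 IRI mice and axes from 0. Umod is lower on the right in 5 of 5 mice, Egf in 4 of 5 and Ptger3 in 4 of 5, while Slc12a1 chose the nuclei and is shown as a description.

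Outside the limb nuclei Umod was near the level of the proximal tubule reference, which should lack it, at 0.906 to 1.56 times it by library. Egf was at 1.12 to 3.44 times and Kcnj1 at 1.16 to 3.35 times the reference. Ptger3 in the reference had 0 UMIs in control 4 and Bsnd had 0 in control 4 and in day 28 mice 2 and 3, so no range of ratios is given for them. Slc12a1 in other nuclei is held to 1 UMI by the rule. Umod in other nuclei was at 36.3 to 72.8 CPM in controls, 12.6 and 11.9 at day 7, and 24.2, 13.5 and 5.97 at day 28. In the reference it was at 35.5 to 49.3, 10.6 and 13.2, and 18.8, 10.9 and 4.09 CPM, so the level over all other nuclei is not read as expression. The source of these UMIs was not tested, and nuclei with 1 Slc12a1 UMI held 531 CPM of Umod in control 4. The difference from control in other nuclei was -2.26 at day 7 (SE 0.44, adjusted p = 0.00158) and -2.15 at day 28 (SE 0.38, adjusted p = 0.00101). Egf in other nuclei was -1.91 at day 7 against control (SE 0.46, adjusted p = 0.00569) and -0.45 at day 28 (SE 0.38, adjusted p = 0.360). Of the 7 members 2 were lower there at day 7 (background 22% of 15028 genes lower), and Umod and Cldn10 were lower at day 28 (background 18.7%). Ptger3 was 0.70 and 0.37, Kcnj1 -0.52 and -0.28 and Bsnd -1.68 and -2.22 at day 7 and day 28 against control, and none of these passed. With the barcode set as a term Umod and Egf missed the threshold at day 7 (adjusted p 0.266 and 0.196). Cldn16 had 0 UMIs in the other nuclei of all 3 day 28 mice and 2 to 12 in those of the 4 controls, too few for a fold change, and it passed the filter through the groups where it was present.

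Egf had a second site, nuclei with markers of the distal convoluted tubule, the segment that follows the limb and reabsorbs salt through NCC. These nuclei were chosen after seeing the data as other nuclei with 2 or more UMIs of Slc12a3, the gene of NCC, and of no other class. Egf was at 2821, 843, 2816 and 895 CPM in them in controls 1 to 4, at 565 and 603 at day 7, and at 1239, 994 and 4493 at day 28. In CPM both day 7 mice lay below every control and every day 28 mouse, from 18 to 56 nuclei a mouse. By the share of these nuclei with an Egf UMI, day 28 mouse 2 (26.9%) lay between the day 7 mice (17.9% and 34.2%). The controls had 40.0% to 61.1% and day 28 mice 1 and 3 had 45.5% and 72.2%. Proximal tubule-marker nuclei held 28.4, 8.80 and 11.5 CPM of Egf in the 3 groups pooled. Umod in the distal nuclei was 183, 127 and 148 CPM pooled, above the 43.2, 10.3 and 8.16 CPM of proximal tubule-marker nuclei and below the 1172, 517 and 1006 CPM of limb nuclei.

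Kcnj1 and Bsnd were also present further along the nephron. In distal convoluted tubule-marker nuclei Kcnj1 was at 256, 277 and 296 CPM in controls, day 7 and day 28 pooled, and in connecting tubule and principal cell-marker nuclei, where ROMK secretes potassium, at 89.4, 158 and 148 CPM. Proximal tubule-marker nuclei had 4.39, 0.550 and 1.38 CPM. Bsnd, which also serves chloride exit from intercalated cells, was at 132 CPM in intercalated cell-marker nuclei of controls (13 UMIs, 95% exact Poisson interval 70.2 to 225 CPM) and at 25.7 and 25.1 CPM at day 7 and day 28 (5 and 6 UMIs). Ptger3 was at 60.8, 118 and 54.3 CPM in the same nuclei, from 6, 23 and 13 UMIs. The intervals cover counting error only.

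Cldn10 was as abundant in proximal tubule nuclei as in the limb, and there it was higher at day 7. In other nuclei with 2 or more Lrp2 UMIs it was at 231, 281, 328 and 324 CPM in controls, 472 and 615 at day 7, and 280, 289 and 293 at day 28. The day 7 mice lay above all 7 other libraries. The means were 291 ± 45.3 (SD, n = 4), 544 ± 101 (SD, n = 2) and 287 ± 6.95 CPM (SD, n = 3). At 1000 UMIs a nucleus 36% and 45.9% of these nuclei had a Cldn10 UMI at day 7, against 19.3% to 27.0% in controls and 21.5% to 27.5% at day 28. Over all other nuclei Cldn10 was 0.16 at day 7 against control (SE 0.26, adjusted p = 0.640), -0.90 at day 28 relative to control (SE 0.24, adjusted p = 0.0106) and -1.06 from day 7 to day 28 (SE 0.28, adjusted p = 0.0497). It was the 1 member lower from day 7 to day 28 there, where 0.918% of genes were lower. This last call missed the threshold when any library but control 3 was left out (adjusted p 0.0561 to 0.480). Other nuclei are a mixture whose makeup differs between the sorts, and its part in this result was not tested.

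**Figure D5:**
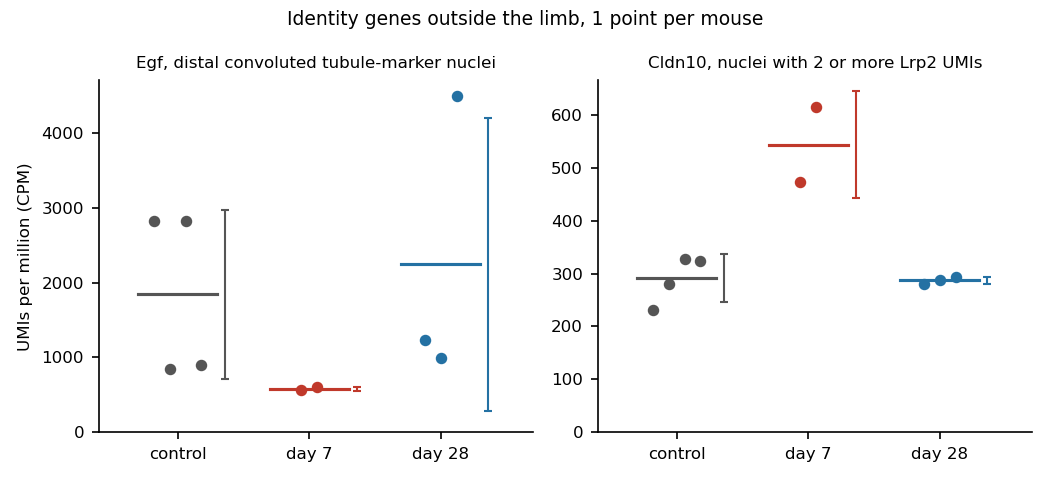
Left, Egf in distal convoluted tubule-marker nuclei, and right, Cldn10 in other nuclei with 2 or more Lrp2 UMIs, in CPM from 0, with 1 point per mouse, a bar at the group mean and a whisker of 1 SD. The day 7 mice are the lowest of the 9 for Egf (565 and 603 CPM) and the highest of the 9 for Cldn10 (472 and 615 CPM).

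The share of nuclei that were limb nuclei did not separate the groups. It was 14.0%, 4.76%, 3.00% and 6.28% in controls, 5.59% and 4.35% at day 7, and 8.53%, 4.86% and 6.16% at day 28. The sort and its reporter can set these shares. IRI libraries averaged 5.90% ± 1.63 (SD, n = 5) and controls 7.01% ± 4.86 (SD, n = 4), a difference of -1.12 points (two-sided exact permutation test over libraries, p = 0.738). Control 1, the mouse without surgery, had the highest share, and without it the difference was 1.22 points. Day 28 minus day 7 was 1.55 points (exact permutation p = 0.400, where 10 splits allow no p below 0.1).

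Most of the salt transport partners tested were lower at day 7 in the fit without the barcode set. Of 7 salt reabsorption partners tested 6 were lower (background 17.8%), among them Atp1b1, the beta subunit of the sodium pump (-1.47, SE 0.25), the pump's regulator Fxyd2 (-2.64, SE 0.36) and the sodium-proton exchanger Slc9a3 (-1.02, SE 0.36). The potassium channel gene Kcnj16, named after its value was seen, was the one that did not pass (-0.18, SE 0.27, adjusted p = 0.644). By TMM-scaled CPM Fxyd2 was at 1682, 1979, 1305 and 2376 in controls, 362 and 220 at day 7, and 1084, 593 and 501 at day 28, with no overlap of the 3 groups. At day 28 3 of the 7 were lower than control (background 10.6%), Atp1b1 (-0.76) and Fxyd2 (-1.35) among them, and Fxyd2 was higher than at day 7 (1.30, adjusted p = 0.0470). Fxyd2, Atp1b1 and Slc9a3 are also genes of proximal tubule, whose marker sum in limb nuclei was lower in IRI mice, and the part of this in their fall was not tested.

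Of 4 kinase genes of the pathway that activates the cotransporter, Wnk1 (-1.03, SE 0.26) and Wnk4 (-1.10, SE 0.29) were lower at day 7 (background 17.8%). At day 28 Wnk1 was lower (-0.66, SE 0.23, background 10.6%). In the calcium and magnesium route 1 of 4 genes tested was lower and 1 higher at day 7 (background 17.8% lower and 13% higher). The lower one was Cldn19 (-1.76, SE 0.46), the partner of Cldn16 in the calcium and magnesium pore. The higher one was the parathyroid hormone receptor Pth1r (0.77, SE 0.28). Pth1r was lower at day 28 than at day 7 (-1.54, SE 0.30), and Casr was higher at day 28 than in controls (0.76, SE 0.26). Among 9 transcription factors of the limb Pax8, which builds the nephron in development, was higher at day 7 (1.80, SE 0.23, background 13%). It was at 246 to 340 TMM-scaled CPM in controls, 1164 and 1002 at day 7, and 476, 545 and 365 at day 28. It was lower at day 28 than at day 7 (-1.23, SE 0.24). Irx1 (-1.80, SE 0.51) and Ppargc1a, a coactivator of mitochondrial genes (-0.87, SE 0.26), were lower at day 7 (background 17.8%). Pou3f3, Irx2, Esrrb, Esrrg and Tfap2b did not pass the test in either direction.

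Of 7 further limb-enriched genes 5 were lower at day 7 (background 17.8%), Wfdc15b (-4.06, SE 0.63), Sostdc1 (-2.83, SE 0.44), Tmem207 (-1.85, SE 0.32), Ppp1r1a (-1.41, SE 0.40) and Kng2 (-1.12, SE 0.26). Wfdc15b (2.50), Tmem207 (1.49) and Kng2 (1.4) were higher at day 28 than at day 7, and Sostdc1 (-1.76) and Wfdc15b (-1.56) were lower at day 28 than in controls. Of 12 injury genes listed 8 passed the filter on low counts, and Krt20, Lcn2, Krt18 and Cdkn1a did not. Of the 8 tested 7 were higher at day 7 (background 13%) and 6 at day 28 (background 7.14%). The largest values were those of Cd44 (7.53 and 5.13) and Havcr1 (7.07 and 4.65), which had 0 UMIs in 2 and 3 of the 4 controls. These 2 genes passed the filter through the IRI groups, which fixed their direction, so the counts are a description. None of the 4 macula densa genes passed the filter on low counts. With the barcode set as a term, added for the lists after seeing the data, 0 of the 7 salt partners, 0 of the 4 kinases, 0 of the 4 genes of the calcium and magnesium route and 0 of the 7 further limb genes passed at day 7 against control, while Pax8 and 5 injury genes did. Over all 8015 genes 90 passed at day 7 against control under that term, so few of any short list would pass. For day 28 against control Cd44 and Vcam1 were the genes of these lists that passed. Between the days Pth1r, Pax8, Kng2 and Tmem207 passed under that term, and the injury genes Cd44, Havcr1 and Spp1 were lower at day 28. These lists were chosen with earlier results of these data known.

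Over the 9 limb sums the genes whose pattern was most like the mean standardised profile of the 7 members were Ipo4 (Pearson r = 0.969), Prkd1 (0.966), Ring1 (0.957), Ddx5 (0.939) and Lage3 (0.935). The 9 points share library depth and kit with the members, and the 5 genes were picked as the highest of all genes tested.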

How the data were processed

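The authors deposited raw UMI counts per gene and nucleus, in 1 table for controls and 1 for IRI mice. Per the labels, nuclei of flash-frozen kidneys were sorted for GFP with doublets gated out, and 3' libraries were made with kit v2 or v3. Per the submitters' processing notes the build was mm10 and the tools included STAR, Seurat and Cell Ranger, without versions. No doublet caller was run. A gene absent from a table was counted as 0. A nucleus with 2 or more Slc12a1 UMIs was a limb nucleus. Counts were summed per library, and genes of both tables were tested in 1 fit of all 9 libraries with edgeR 4.0.16 (TMM, filterByExpr, quasi-likelihood F test, Benjamini-Hochberg adjustment over all genes tested, threshold 0.05) in R 4.3.3. In the self-test on simulated limb sums (8015 genes), it recovered 78%, 78% and 68% of 4-fold and 25%, 10% and 12% of 2-fold changes for day 7 and day 28 against control and for day 28 against day 7. Libraries are the replicates, so p-values rest on the spread between them. The groups share 1 estimate of this spread, because the day 7 group has 2 libraries. Shares were compared by exact permutation over libraries (scipy 1.17.1). Alternatives were DESeq2 1.42.0, other scalings, filters, limb rules, depths, a barcode set term and each library left out.

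By the rule all 8 members are named. Other genes named are those of fixed lists that passed the threshold in limb nuclei. Kcnj16 and other transcription factors of the list are named without passing. The 5 genes with the highest limb to other ratio and the 5 with the most similar profile are also named. Some genes of these lists are not reported here. Members and lists were chosen with earlier results of these data known. Barcode sets were read from the barcodes' starting letters, because the labels name both kits without assigning them. Nuclei were thinned by drawing 1000 UMIs from each, leaving out shallower ones. Intervals are 95% and cover counting error only.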

Additional observations from a re-analysis of the deposited data

Results flagged for a closer look

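Bsnd in nuclei outside the limb was at 20.1 CPM in control 1, the mouse without surgery, while the next highest of the 4 controls had 4.11 CPM. The gap was 0.880 of the range of the controls. Of 17 groups looked at this was the one past Dixon's limit, and chance passes it in about 1 of 20 groups. Bsnd passed the threshold in none of the 3 group comparisons of these nuclei (edgeR).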

How the results depend on the processing

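The fall of Umod and Egf in limb nuclei at day 7 against control passed the threshold under every alternative run except the barcode set as a term, including each library left out. The rise of Egf from day 7 to day 28 passed under all but 1, without day 7 replicate 2 (1.66). The calls of Ptger3 and Cldn10 lie near the threshold. Bsnd and Cldn16 are limited by their few UMIs. Barcode set and day 7 cannot be told apart from control except through day 28 replicate 1. Numbers did not pair the mice (correlations of same-numbered libraries -0.17 to 0.05). Causes of the changes below were not tested, apart from the fewer genes and libraries that some alternatives use.

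When barcode set entered the fit as a term, limb nuclei gave 90 called genes for day 7 against control (2467 otherwise) and 87 for day 28 against control (1424), with 0 and 0 members, and 1 member for day 28 against day 7. In other nuclei they were 1364 (6831) and 2692 (6057), with 0 and 1 members, and 0 members for day 28 against day 7. Under that term Bsnd was 0.13, Kcnj1 0.027 and Cldn10 0.075 in limb nuclei at day 7, Bsnd 1.19 and Cldn10 -0.38 in other nuclei at day 7, Kcnj1 0.0047 there at day 28 and Umod -0.29 between the days. Within v2 barcodes day 28 against control called 60 genes and 0 members in limb and 1459 (6057) and 0 in other nuclei, where Kcnj1 was 0.014. Within v3 barcodes day 28 against day 7 called 561 (299) in limb and 1899 (690) in other nuclei, where Umod was -0.22.

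With nuclei thinned to 1000 UMIs, limb nuclei gave 618 genes at day 7, 459 and 0 members at day 28 and 41 and 1 member between the days, and limb against other nuclei 1750 (3200) and 3 members (6). Without TMM factors 0 members were called at day 28 in limb nuclei, Kcnj1 was 0.11 at day 7, and Cldn10 was 0.015 in limb against other nuclei. With 1 or more Slc12a1 UMIs as the rule, day 28 against control gave 2399 genes and 0 members in limb nuclei, and Cldn16 was -0.13. Without the filter on low counts, day 28 against day 7 gave 625 genes and 1 member in limb and 0 members in other nuclei, and Kcnj1 was 0.059 at day 7. Genes of either table gave 0 members in other nuclei between the days and 0.0019 for Bsnd in limb nuclei. DESeq2 gave 1397 genes and 2 members in other nuclei between the days, and 0.10 for Bsnd in limb nuclei. Members called between the days in limb nuclei were 1 in place of 2 with 1 or more Slc12a1 UMIs, with 2 or more and 1 per 1000 UMIs, with nuclei under 1000 UMIs left out, and under the rule without Slc12a1, Umod and Egf, which chooses nuclei by Ptger3 and Cldn16, so that these do not count as tested there.

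With the replicate block, day 28 against day 7 called 1 member in limb nuclei and 306 genes in other nuclei, Cldn16 was -0.11 at day 28 and Bsnd 0.44 between the days in limb nuclei. The mice share only a number, so this is no pairing of animals. Other signs that turned, none of them called, were Kcnj1 in limb nuclei at day 7 (0.017 with 1 per 1000 UMIs), Bsnd between the days (0.041 with 3 or more and 0.026 with 5 or more Slc12a1 UMIs), and Cldn16 at day 28 (-0.13 with nuclei under 1000 UMIs left out, -0.18 with under 1% proximal tubule UMIs, and, with no weight because the rule without Slc12a1 uses both genes, -0.85 for it and -0.29 for Ptger3). With the threshold at 5 or more, other nuclei gave Ptger3 -0.0083 at day 28, Umod -0.11 between the days and 0 members called there.

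Leaving out each library in turn gave, in limb nuclei, 1194 to 2892 genes and 2 to 4 members at day 7, 722 to 2006 and 0 to 2 at day 28, and 91 to 325 and 0 to 2 between the days. In other nuclei it gave 3899 to 7819 and 1 to 2, 4349 to 7176 and 2 to 4, and 100 to 794 and 0 to 1. Limb against other nuclei gave 2751 to 3154 genes and 6 members throughout, Cldn16 counted here and among the members called in other nuclei at day 28. The limb share ran from -2.45 to 1.22 points for IRI against control and from 0.54 to 2.38 for day 28 against day 7. Signs also turned for members that were not called. In limb nuclei Kcnj1 at day 7 ran from -0.26 to 0.18, Bsnd between the days from -0.49 to 0.48 and Cldn16 at day 28 from -0.22 to 0.46. In other nuclei Cldn10 at day 7 ran from -0.035 (without control 1) to 0.31 and Kcnj1 at day 28 from -0.43 to 0.016 (without control 1). Between the days Umod ran there from -0.29 (without day 28 replicate 1) to 0.50, Kcnj1 from -0.00018 (without day 7 replicate 1) to 0.50 and Bsnd from -1.80 to 0.027 (without day 28 replicate 2).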
